A study of Mus musculus with 20 samples.

Results

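The 35 genes described here encode 2-oxoglutarate-dependent dioxygenases that act on DNA, RNA, histones or the hypoxia-inducible factor (HIF). They comprise the 3 TET DNA dioxygenases, 19 proteins of the Jumonji C (JmjC) class, the 9 members of the AlkB family and the 4 HIF hydroxylases. They were chosen by gene name from an RNA-seq table of 24795 mouse genes, and all 35 were found in it. RNA was measured in 6 libraries from Apc Min mice treated with DM-aKG, in 7 libraries from control-treated Apc Min mice and in 7 libraries from WT mice that received no treatment. The Min allele is a germline nonsense mutation of Apc, a negative regulator of Wnt signalling, and carriers form adenomas of the intestine. DM-aKG, the dimethyl ester of alpha-ketoglutarate (2-oxoglutarate), enters cells more readily than the free acid. The sources used here do not give dose, route, duration, age or strain background. The sample titles name tissue, whereas other label fields name intestinal organoids, organoid medium and a low-glutamine medium for all groups, and the labels do not resolve this. No label ties a library to an animal or culture, so the p-values reflect only how these libraries vary, which may in part be technical.

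Dioxygenases of this class use alpha-ketoglutarate and oxygen as co-substrates with iron as the metal, and they release succinate. TET enzymes oxidise 5-methylcytosine in DNA, JmjC demethylases remove methyl groups from histone lysines, and AlkB enzymes act on alkylated bases of DNA and RNA and, for some members, on protein. The prolyl hydroxylases Egln1, Egln2 and Egln3 mark HIF alpha subunits for degradation through Vhl, and Hif1an, an asparaginyl hydroxylase, limits their activity as transcription factors. Because Egln1, Egln3 and Kdm3a are themselves known HIF-induced genes, their transcripts are often read beside those of other hypoxia-induced genes. RNA levels do not report enzyme activity, which depends on co-substrate, oxygen and iron.

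Levels are RPKM (reads per kilobase of gene, scaled to the reads mapped in a library), so they can be compared between genes. A gene was tested when it had at least 1 RPKM in at least 6 libraries, which 12431 genes did, among them 34 of the 35. Tet1 was not tested. Changes are log2 differences of RPKM + 1 from limma, which understate the change of low genes, and "rose", "fell" and "called" refer to an adjusted p under 0.05 over all tested genes. Over all tested genes, the median change was -0.14 in DM-aKG over control Apc Min, 0.20 in control Apc Min over WT and 0.05 in DM-aKG Apc Min over WT. Quantile normalization brought these medians to 0.02, -0.01 and 0.01, and median-of-ratios scaling to 0, -0.01 and -0.01, so a change of this size in a single gene depends on the scaling. The 3 comparisons share groups with each other, and a high or low value in control libraries moves the comparisons it enters in opposite directions.

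Depth, estimated from the steps between low values, was 21.3 to 29.3 M reads per library. Myh11, a smooth muscle myosin, lay at 110.1 to 212.6 RPKM in DM-aKG Apc Min, 36.8 to 139.9 RPKM in control Apc Min and 122.6 to 194.2 RPKM in WT libraries. Ptprc, a pan-leukocyte gene, was present in all 20 libraries at 1.01 RPKM or more, as was the plasma cell gene Jchain at 34.4 RPKM or more, beside the epithelial gene Epcam at 506.5 RPKM or more. In such bulk samples fewer cells of a type and less RNA per cell cannot be told apart. Xist was at most 0.0491 RPKM and the Y-linked gene Ddx3y at least 5.85 RPKM in all 20 libraries, so the X-linked members Kdm5c, Kdm6a and Phf8 were not measured in libraries of differing sex. Within groups, long and short genes deviated in opposite directions in some libraries. The Spearman correlation of the members' deviation from their group mean with exonic length was -0.64 and -0.57 in control replicates 1 and 4, 0.6 and 0.57 in control replicates 5 and 7, and -0.7 and 0.64 in WT replicates 1 and 5, over 34 genes that are not independent of each other. Over 12279 genes with a length the values for the same libraries were weaker, at -0.44 and -0.42, 0.41 and 0.4, and -0.29 and 0.37. Kdm3b, with a long transcript, had 6.72 RPKM in control replicate 1 and 14.2 RPKM in control replicate 5, whereas the short Alkbh7 had 6.77 and 2.24 RPKM in the same libraries. Over the 34 genes the correlation was positive in every library of replicates 5 to 7 and negative in most libraries of replicates 1 to 4. The ribosomal RNA gene Rn45s lay at 3836 to 6558 RPKM in replicates 1 to 4 and at 1078 to 3621 RPKM in replicates 5 to 7. No label says what sets these replicates apart, and they are also read separately below. The part of transcript length in the results below was not tested.

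With DM-aKG, none of the 34 tested genes rose and 8 fell relative to control Apc Min (23.5%), where 5.91% of all tested genes rose and 27.6% fell (33.5% called in either direction). The 8 were the HIF prolyl hydroxylases Egln1 and Egln3, the JmjC genes Hr, Kdm5b, Kdm5c, Kdm2a and Jmjd6, and the AlkB gene Alkbh2. The share is near that of all genes. The median change of the 34 genes was -0.11, against -0.14 for all genes, and its sign turned with the scaling: it was 0.07 after quantile normalization and 0.05 after median-of-ratios scaling. Of the 8, Egln3, Hr, Kdm5b and Alkbh2 were also called after quantile normalization and after median-of-ratios scaling, and the other 4 were called after neither. Under each of these scalings 4 of the 34 fell, where 14.9 and 14.7% of all genes fell. Alkbh2 was tested only because control and WT libraries reached 1 RPKM, which no DM-aKG library did. In control Apc Min, 16 of the 34 were higher than in WT (47.1%, against 43.2% of all genes) and 1, Alkbh4, was lower (2.94%, against 15.7%), where 58.9% of all genes were called in either direction. Of the 16, 7 were called under all 3 scalings: Kdm3a, Kdm4a, Kdm4b, Kdm5b, Fto, Egln1 and Egln3. After quantile normalization and median-of-ratios scaling, 7 and 8 of the 34 were higher, where 26.1 and 26.3% of all genes were higher. The share of all genes called under all 3 scalings was not counted. In DM-aKG Apc Min, 9 were higher than in WT (26.5%, against 21.9% of all genes) and 5 were lower (14.7%, against 17.3%), where 39.2% of all genes were called in either direction. The RPKM ranges of control Apc Min and WT did not overlap for 11.8% of the 34, against 26.1% of all genes. This was so for 8.82 against 8.92% in DM-aKG over control and for 20.6 against 17.2% in DM-aKG Apc Min over WT. As a list these genes were called about as often as other genes, except that fewer were lower in control Apc Min than in WT. What follows concerns single members and families.

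**Figure D1:**
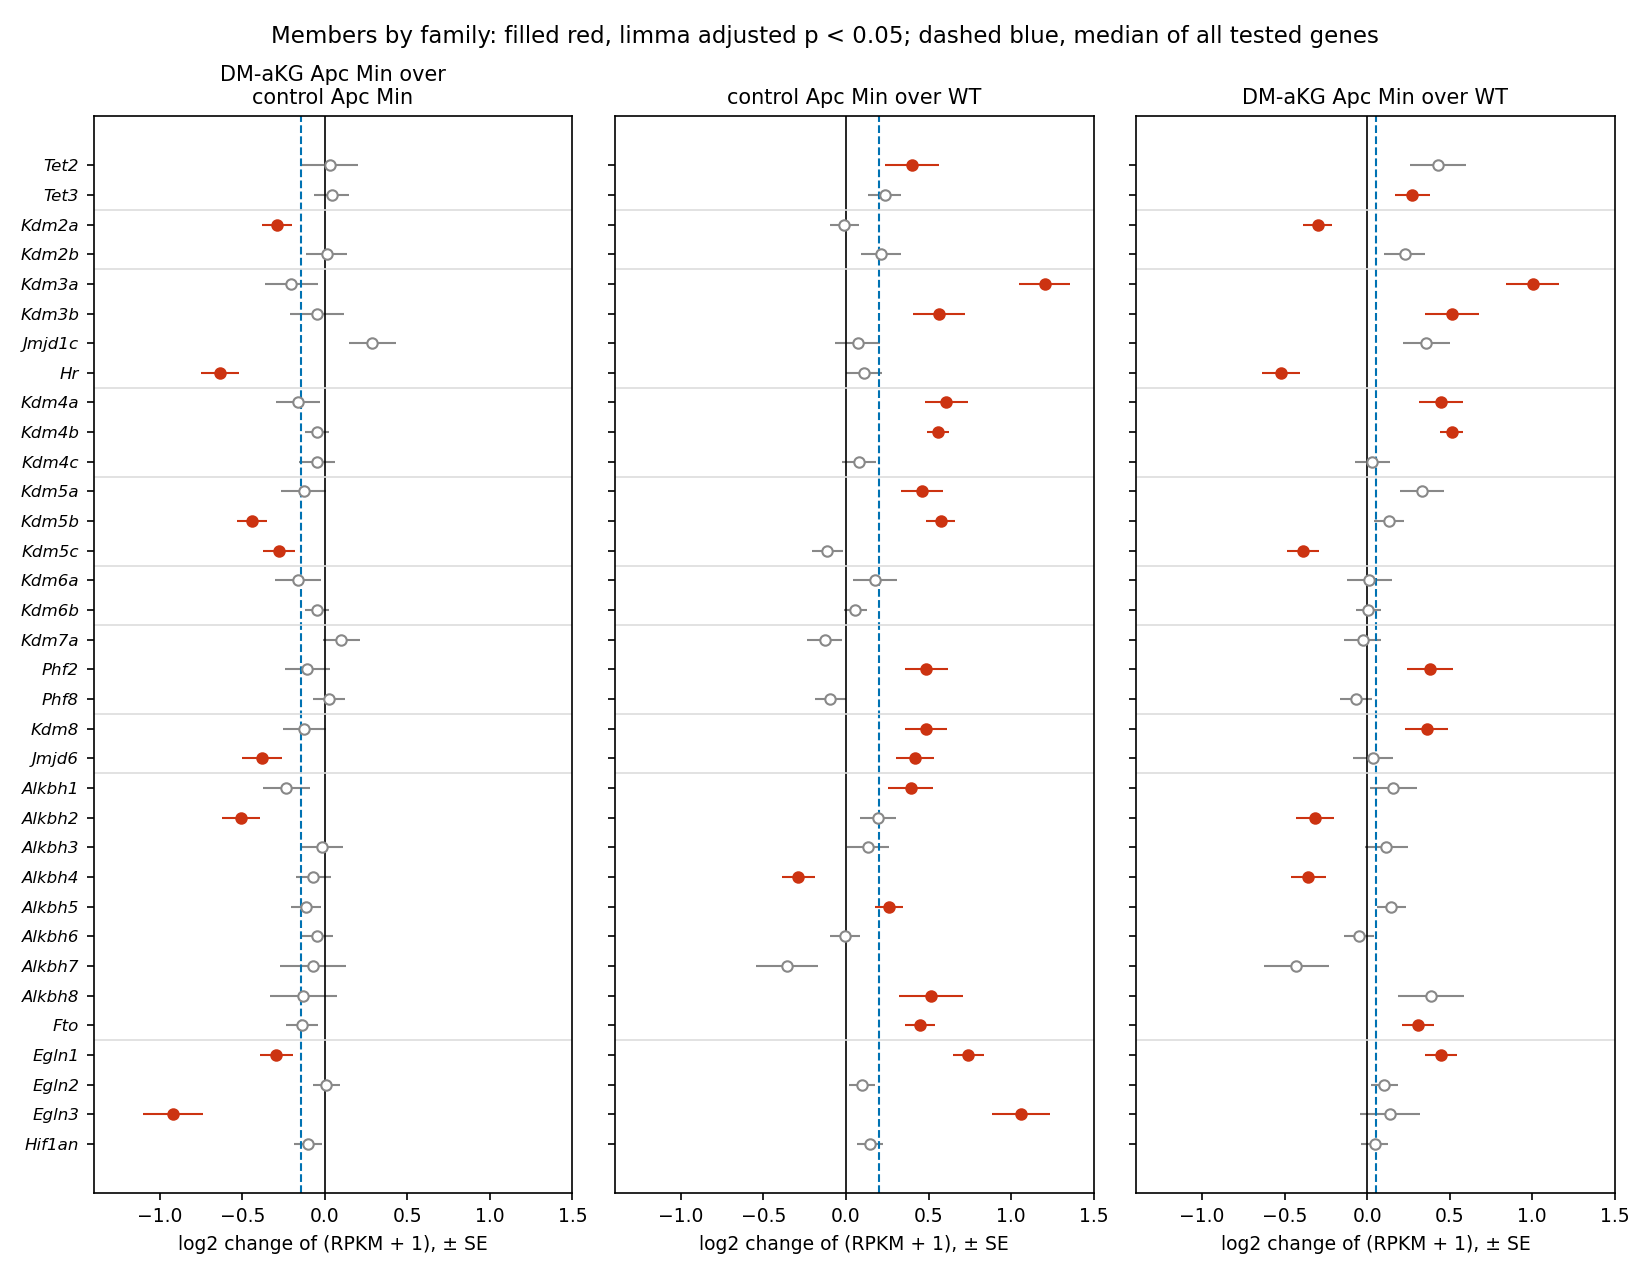
Log2 change of RPKM + 1 (x axis) for the 34 tested genes (rows, grouped by family) in the 3 comparisons, with limma standard errors as bars. Filled red points have an adjusted p under 0.05, and the dashed line is the median of all 12431 tested genes (-0.14, 0.20 and 0.05). Egln3 has the lowest value in the left panel and Kdm3a the highest in the middle panel.

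Among the HIF hydroxylases, Egln3 was lower with DM-aKG than in control Apc Min and higher in control Apc Min than in WT, Egln1 was higher than in WT in both Apc Min groups, and Egln2 and Hif1an were not called. Egln3 was the most abundant of the 35 transcripts in each group. Egln3 lies on mm10 chr12:54178981-54203860 (minus strand). It had 23.6, 32.1 and 40.4 RPKM (lowest, median and highest) in DM-aKG Apc Min, 42.8, 59.2 and 89.0 RPKM in control Apc Min and 21.8, 27.1 and 46.1 RPKM in WT libraries. Every DM-aKG library lay below every control Apc Min library, as was so for 8.19% of all tested genes (0.732% lay wholly above and 8.92% did not overlap in either direction), and the DM-aKG and WT libraries overlapped over most of their range. Means were 32.6 ± 5.86 RPKM with DM-aKG (SD, n = 6), 63.5 ± 16.8 RPKM in control Apc Min and 30.0 ± 8.69 RPKM in WT (SD, n = 7 each). The log2 change was -0.92 (SE 0.18, adjusted p = 0.00066) for DM-aKG over control, 1.06 (SE 0.17, adjusted p = 3.9e-05) for control Apc Min over WT and 0.14 (adjusted p = 0.556) for DM-aKG Apc Min over WT. The fall was -1.13 within replicates 1 to 4 (adjusted p = 0.00328) and -0.65 within replicates 5 to 7, where it was not called (adjusted p = 0.0733) and DM-aKG had 2 libraries.

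Egln1, the main oxygen sensor of the HIF pathway in most cells (chr8:124908587-124949324, minus strand), was raised in both Apc Min groups. It had 17.4, 19.4 and 22.1 RPKM in DM-aKG Apc Min, 18.2, 24.7 and 29.9 RPKM in control Apc Min and 12.0, 14.4 and 15.4 RPKM in WT libraries (lowest, median and highest). All Apc Min libraries of both groups lay above all WT libraries, which was so for 9.36% of tested genes in DM-aKG Apc Min and for 20.4% in control Apc Min (7.79 and 5.73% lay wholly below, and 17.2 and 26.1% did not overlap in either direction). It rose by 0.74 in control Apc Min over WT (SE 0.09, adjusted p = 2.0e-06) and by 0.45 in DM-aKG Apc Min over WT (SE 0.10, adjusted p = 0.00166). The change for DM-aKG over control was -0.29 (SE 0.10, adjusted p = 0.0268) and less firm: it was -0.14 (adjusted p = 0.286) after quantile normalization and -0.13 (adjusted p = 0.424) after median-of-ratios scaling, and it was not called without DM-aKG replicate 3, 4 or 5 or without control replicate 3 or 4.

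Egln2, the third prolyl hydroxylase, and Hif1an were not called in any comparison. Egln2 (chr7:27158658-27166802, minus strand) had 20.9, 21.8 and 23.8 RPKM in DM-aKG Apc Min, 19.3, 22.6 and 25.8 RPKM in control Apc Min and 16.9, 20.1 and 23.9 RPKM in WT libraries. Hif1an (chr19:44562850-44576274, plus strand) had 7.48, 8.10 and 8.93 RPKM with DM-aKG, 7.67, 8.71 and 9.64 RPKM in control Apc Min and 6.50, 7.80 and 10.1 RPKM in WT. The 3 groups overlapped for both genes. The change of Egln2 for DM-aKG over control was 0.01 as deposited and 0.17 under either other scaling, still without a call (adjusted p = 0.109 and 0.211).

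**Figure D2:**
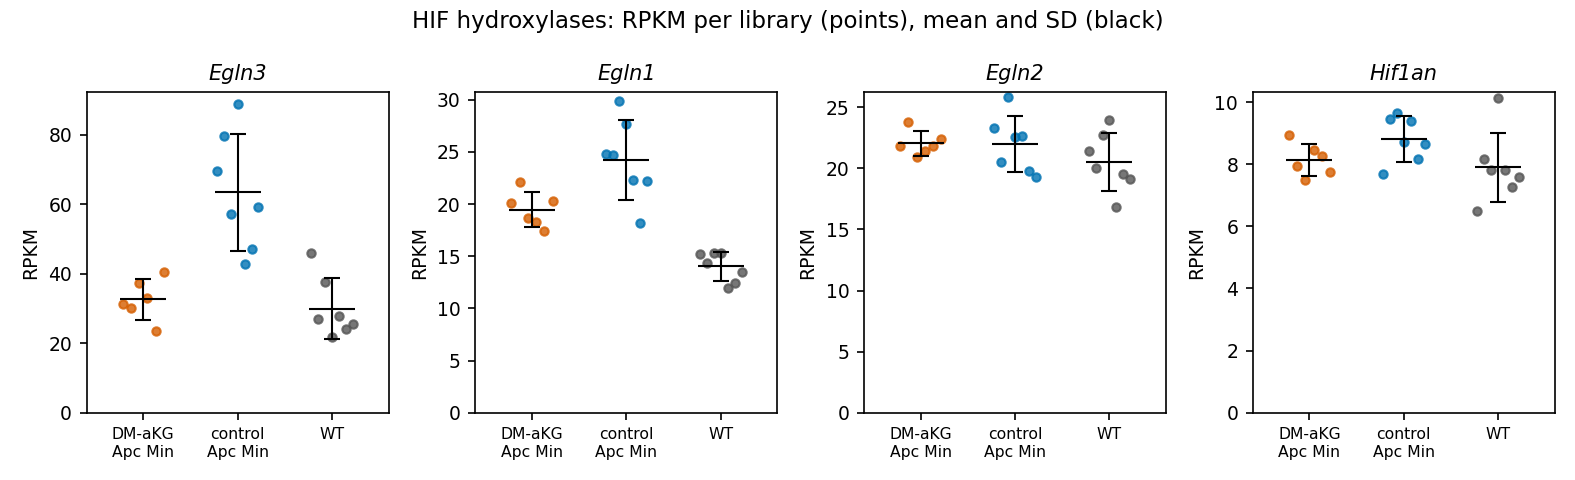
RPKM of the 4 HIF hydroxylase genes (panels) in each of the 20 libraries (points), with group mean and SD in black and axes from 0. Egln3 is at 42.8 RPKM or more in every control Apc Min library and at 40.4 RPKM or less in every DM-aKG library, while the 3 groups overlap for Egln2 and Hif1an.

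The balance between the prolyl hydroxylases, which does not depend on a library's scaling factor, differed between groups in the same way. Egln3 made up 43.7 ± 4.58% of the summed RPKM of Egln1, Egln2 and Egln3 with DM-aKG, 57.2 ± 5.93% in control Apc Min and 45.9 ± 6.36% in WT (SD, n = 6, 7 and 7). The ratio of Egln3 to Egln2 within a library was 1.08 to 1.8 with DM-aKG, 1.89 to 3.94 in control Apc Min and 0.91 to 2.15 in WT. The ratio of Egln1 to Egln2 took 3 levels with a narrow spread: 0.88 ± 0.05 with DM-aKG, 1.10 ± 0.12 in control Apc Min and 0.69 ± 0.03 in WT. Its range was 0.80 to 0.93 with DM-aKG, 0.92 to 1.23 in control Apc Min and 0.64 to 0.72 in WT, so the DM-aKG and control libraries overlapped slightly and the WT libraries lay apart from both. These ratios were chosen with the values known and are given without a test.

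The promoters of Egln3, Egln1 and Kdm3a, whose transcripts were higher in control Apc Min than in WT, are shown beside that of Egln2, whose transcript was not called. Each is the 250 bases before the gene's most upstream RefSeq transcript start on GRCm38.p6 (the mm10 assembly), printed 5′ to 3′ on the gene's strand. The regions are chr12:54203875-54204124 for Egln3, chr8:124949255-124949504 for Egln1, chr7:27166803-27167052 for Egln2 and chr6:71632918-71633167 for Kdm3a, all on the minus strand. Capitals mark the core of the hypoxia response element, ACGTG or GCGTG, or its reverse complement, CACGT or CACGC.
Egln3: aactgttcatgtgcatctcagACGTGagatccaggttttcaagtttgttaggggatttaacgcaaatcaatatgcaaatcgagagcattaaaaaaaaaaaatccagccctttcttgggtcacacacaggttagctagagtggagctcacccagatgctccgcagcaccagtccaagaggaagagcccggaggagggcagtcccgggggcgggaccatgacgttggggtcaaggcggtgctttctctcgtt
Egln1: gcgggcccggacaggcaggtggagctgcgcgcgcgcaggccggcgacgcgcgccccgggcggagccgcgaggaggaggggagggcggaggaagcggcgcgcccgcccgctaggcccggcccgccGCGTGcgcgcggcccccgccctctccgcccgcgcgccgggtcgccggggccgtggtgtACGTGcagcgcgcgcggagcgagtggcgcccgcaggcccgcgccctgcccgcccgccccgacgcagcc
Egln2: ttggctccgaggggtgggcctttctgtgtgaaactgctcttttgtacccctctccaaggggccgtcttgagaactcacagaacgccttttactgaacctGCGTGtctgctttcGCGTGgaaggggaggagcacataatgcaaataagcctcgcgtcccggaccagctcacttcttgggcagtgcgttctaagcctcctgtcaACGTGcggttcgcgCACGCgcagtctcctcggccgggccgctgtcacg
Kdm3a: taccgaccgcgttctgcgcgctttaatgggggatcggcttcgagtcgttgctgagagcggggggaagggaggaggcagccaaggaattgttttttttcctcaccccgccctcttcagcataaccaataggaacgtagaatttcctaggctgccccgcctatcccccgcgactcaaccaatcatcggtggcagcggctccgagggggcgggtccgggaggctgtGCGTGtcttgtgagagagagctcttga
The window of Egln3 held 1 match and that of Egln1 held 2, while Egln2 held 4 and Kdm3a 1. Kdm3a has 3 windows, and those not printed held 0 matches. Egln2 has 2, and the one not printed held 1. A match to these short letters is common: 38.6% of the 32851 promoter windows in the RefSeq table held at least 1. Of the 29 genes of the 35 found in that table, 17 had a match in their most upstream window (58.6%). Counted over all 39 windows of the 29 genes, 22 held a match. The 4 windows printed were chosen with the values known, and each of them held a match.

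Genes of the HIF pathway outside the 35 moved in the same comparisons. The list for HIF subunits and for protein degradation in this pathway held 13 tested genes. With DM-aKG none rose and 8 fell (61.5%, median -0.33, against 27.6% and -0.14 for all genes). In control Apc Min over WT, 8 rose and none fell (61.5%, median 0.38, against 43.2% and 0.20). After quantile normalization 1 rose and 4 fell with DM-aKG (median -0.14), and after median-of-ratios scaling 1 rose and 3 fell (median -0.19). Of all genes, 14.1% rose and 14.9% fell under the first of these scalings, and 11.1% rose and 14.7% fell under the second. For control Apc Min over WT the list's counts were then 4 higher and 2 lower, and 3 higher and 2 lower, where 26.1 and 26.9%, and 26.3 and 27.5%, of all genes were higher and lower. Arnt2, a partner subunit, had 1.64 ± 0.67 RPKM with DM-aKG, 5.32 ± 1.58 RPKM in control Apc Min and 0.72 ± 0.08 RPKM in WT, a change of -1.26 with DM-aKG (adjusted p = 3.0e-06). Eloc, Siah2 and Vhl, all of which act in degradation by ubiquitin ligases, fell by 0.48, 0.33 and 0.34 with DM-aKG, and of these Eloc was also called under both other scalings. Hif1a, named here after its values were seen, had 9.96, 14.97 and 38.7 RPKM with DM-aKG, 15.1, 39.1 and 58.9 RPKM in control Apc Min and 10.48, 15.9 and 18.5 RPKM in WT (lowest, median and highest).

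Of 22 tested HIF target genes, none of them among the 35, none rose and 13 fell with DM-aKG (59.1%, median -0.45, against 27.6% and -0.14 for all genes). The falls numbered 11 after quantile normalization (median -0.31) and 9 after median-of-ratios scaling (median -0.29), each with 1 rise. Of all genes, 14.9 and 14.7% fell and 14.1 and 11.1% rose under these scalings. In control Apc Min over WT, 17 of the 22 rose and 1 fell (77.3 and 4.55%, median 1.01, against 43.2 and 15.7% and 0.20 for all genes). In DM-aKG Apc Min over WT, 13 rose and 3 fell (59.1 and 13.6%, median 0.42, against 21.9 and 17.3% and 0.05 for all genes). Car9, a carbonic anhydrase, had 12.2 ± 2.94 RPKM with DM-aKG, 34.7 ± 7.22 RPKM in control Apc Min and 15.4 ± 1.62 RPKM in WT. P4ha2, a collagen prolyl hydroxylase of the same enzyme class, had 1.62 ± 0.44, 5.07 ± 1.19 and 1.05 ± 0.22 RPKM in DM-aKG Apc Min, control Apc Min and WT. Bhlhe40, a transcription factor, changed by -0.84 and the glucose transporter Slc2a1 by -2.07 with DM-aKG (adjusted p = 0.000256 and 3.3e-05).

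The KDM3 family of JmjC proteins held the largest rise over WT of the 34 genes, that of Kdm3a, and Hr, whose change of -0.63 with DM-aKG was next to that of Egln3. With a pseudocount of 0.1 in place of 1, Alkbh2 (-0.86) changed slightly more than Hr (-0.83). Kdm3a, which demethylates lysine 9 of histone H3 and is induced by HIF (chr6:71588972-71632990, minus strand), had 10.6, 14.7 and 18.6 RPKM with DM-aKG, 11.1, 16.5 and 24.5 RPKM in control Apc Min and 5.86, 6.56 and 8.15 RPKM in WT. No library of either Apc Min group overlapped with WT. It rose by 1.21 in control Apc Min (SE 0.15, adjusted p = 2.0e-06) and by 1.0 in DM-aKG Apc Min (SE 0.16, adjusted p = 0.000115) over WT. For DM-aKG over control its change was -0.20 without a call (adjusted p = 0.345). It ranked 7th of the 35 genes in level with DM-aKG, 6th in control Apc Min and 17th in WT.

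Hr, hairless, a nuclear receptor corepressor best known from skin and hair follicles (chr14:70552212-70573548, plus strand), was lower with DM-aKG than in either other group. It had 1.75, 2.18 and 2.59 RPKM with DM-aKG, 2.79, 4.21 and 5.20 RPKM in control Apc Min and 2.87, 3.2 and 4.48 RPKM in WT. The DM-aKG libraries overlapped with neither of the other groups. The change was -0.63 over control Apc Min (SE 0.11, adjusted p = 0.000286) and -0.52 over WT (SE 0.11, adjusted p = 0.00161), whereas control Apc Min over WT gave 0.11 (adjusted p = 0.41). Its fall over control was called under all 34 alternative settings, with adjusted p between 1.0e-05 and 0.0336. That over WT was not called within replicates 5 to 7 (-0.51, adjusted p = 0.121).

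Kdm3b, a paralog of Kdm3a, rose by 0.56 in control Apc Min (SE 0.16, adjusted p = 0.00496) and by 0.51 in DM-aKG Apc Min (SE 0.17, adjusted p = 0.019) over WT. It had 7.16, 8.12 and 11.6 RPKM with DM-aKG, 6.49, 8.80 and 14.2 RPKM in control Apc Min and 4.03, 6.36 and 7.47 RPKM in WT. The groups overlapped. The rise in control Apc Min was not called under either other scaling, and that in DM-aKG Apc Min was called under both but not without DM-aKG replicate 2 or 5. Of the exonic length of Kdm3b, 24.6% lies within Gm26538 on the opposite strand, so part of these reads may be from that gene. Jmjd1c, a larger relative, had 9.80, 10.7 and 12.0 RPKM with DM-aKG, 5.30, 8.79 and 11.7 RPKM in control Apc Min and 6.59, 7.99 and 9.94 RPKM in WT. Its change with DM-aKG was 0.29 as deposited (adjusted p = 0.123), but 0.46 after quantile normalization (adjusted p = 0.00837) and 0.44 after median-of-ratios scaling (adjusted p = 0.0136). With the Kdm3a rise, the share of Kdm3a in the summed RPKM of the KDM3 family was 40.1 ± 2.48% with DM-aKG, 43.7 ± 4.74% in control Apc Min and 27.9 ± 2.70% in WT.

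**Figure D3:**
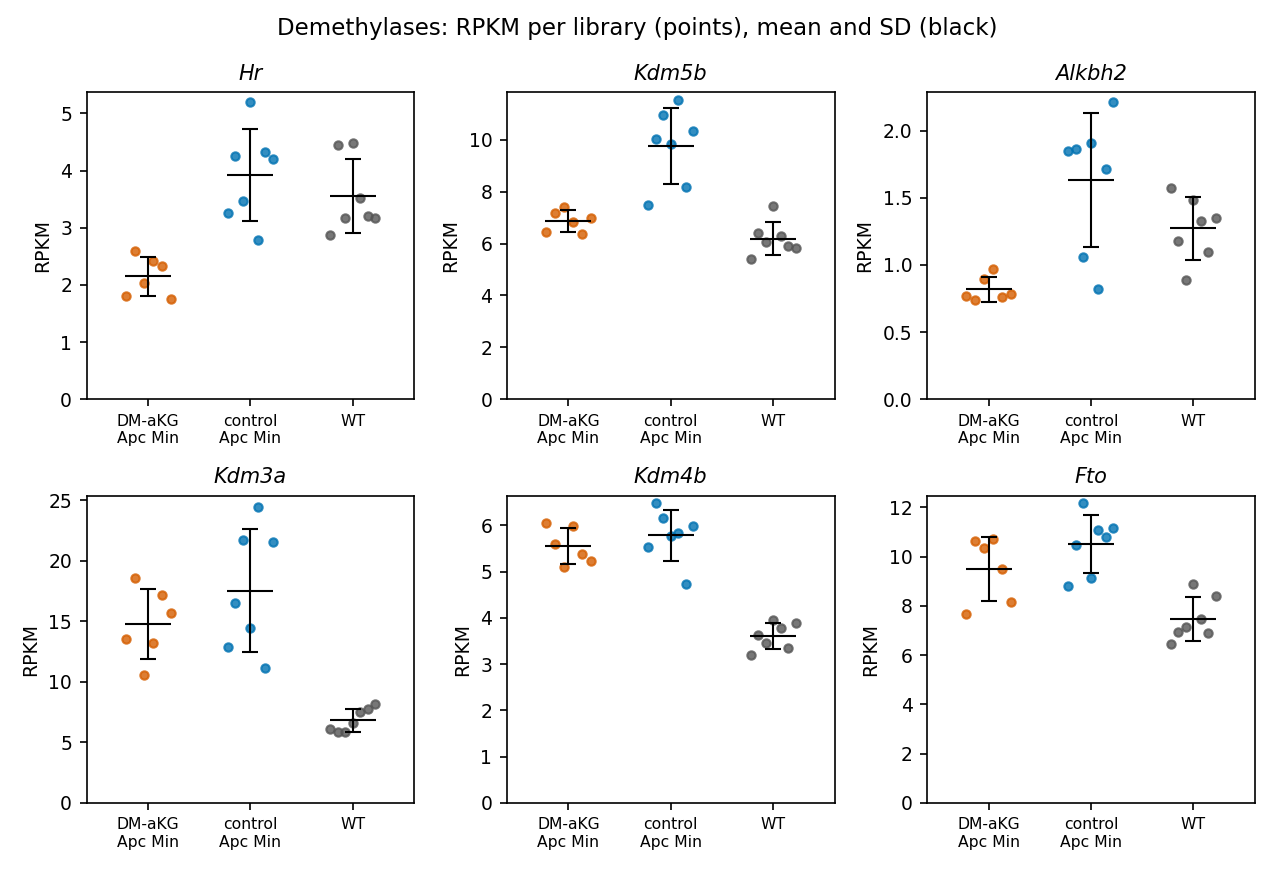
RPKM per library (points) of 6 demethylase genes, with group mean and SD in black and axes from 0. Hr and Kdm5b lie lower in every DM-aKG library than in every control Apc Min library, and Kdm3a and Kdm4b lie higher in every library of both Apc Min groups than in every WT library.

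In the KDM5 family, which removes methyl groups from lysine 4 of histone H3, Kdm5b and Kdm5c both fell with DM-aKG relative to control Apc Min, the fall of Kdm5c only with RPKM as deposited. Kdm5b (chr1:134560171-134635285, plus strand) had 6.36, 6.91 and 7.40 RPKM with DM-aKG, 7.48, 10.01 and 11.5 RPKM in control Apc Min and 5.40, 6.07 and 7.46 RPKM in WT. Control Apc Min libraries lay above all libraries of the other groups, by a narrow margin at their lowest. It fell with DM-aKG by 0.44 (SE 0.09, adjusted p = 0.000822) and rose in control Apc Min over WT by 0.57 (SE 0.09, adjusted p = 1.4e-05). The change of DM-aKG Apc Min over WT was 0.13 (adjusted p = 0.248).

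Kdm5c, encoded on the X chromosome (152233020-152274535, plus strand), was lower with DM-aKG than in WT, with 5.0, 6.05 and 7.32 RPKM against 7.72, 8.15 and 8.55 RPKM and no overlap. That change was -0.39 (SE 0.10, adjusted p = 0.0042) and was called under all 3 scalings. Control Apc Min libraries spread over both ranges, with 5.87, 7.43 and 9.20 RPKM, and were called lower than WT under the other scalings (-0.34 after quantile normalization, adjusted p = 0.00294) but not as deposited. The fall over control Apc Min, -0.28 (SE 0.10, adjusted p = 0.0341), was not called under either other scaling, nor without DM-aKG replicate 3, 4 or 5 or control replicate 2, 6 or 7. Reads of Kdm5c and of its Y-linked paralog Kdm5d, which lay at 2.30 to 6.10 RPKM, could be divided between them by the counting. Kdm5a had 5.92 ± 1.20, 6.64 ± 1.85 and 4.43 ± 0.25 RPKM in DM-aKG Apc Min, control Apc Min and WT, and its rise in control Apc Min over WT (0.46, adjusted p = 0.0048) was not called under the other scalings.

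The KDM4 family, demethylases of lysines 9 and 36 of histone H3, divided between 2 members that were higher in Apc Min and 1 that was not. Kdm4b (chr17:56326062-56402870, plus strand) had 5.11, 5.50 and 6.05 RPKM with DM-aKG, 4.73, 5.85 and 6.48 RPKM in control Apc Min and 3.19, 3.63 and 3.95 RPKM in WT. Neither Apc Min group overlapped with WT. It rose by 0.56 in control Apc Min (SE 0.07, adjusted p = 1.4e-06) and by 0.51 in DM-aKG Apc Min (SE 0.07, adjusted p = 3.5e-05), and DM-aKG over control was -0.05 (adjusted p = 0.653). Kdm4a had 8.27, 9.29 and 12.4 RPKM with DM-aKG, 7.38, 10.52 and 15.1 RPKM in control Apc Min and 5.37, 7.23 and 7.78 RPKM in WT, a rise of 0.61 (adjusted p = 0.000432) in control Apc Min and of 0.45 (adjusted p = 0.0124) in DM-aKG Apc Min over WT. Kdm4c, at 4.30 ± 0.64, 4.51 ± 0.89 and 4.18 ± 0.51 RPKM in DM-aKG Apc Min, control Apc Min and WT, was not called in any comparison. The ratio of Kdm4b to Kdm4c in a library was 1.32 ± 0.23 with DM-aKG, 1.33 ± 0.30 in control Apc Min and 0.87 ± 0.09 in WT.

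The KDM6 demethylases of lysine 27 of histone H3 were not called in any comparison. Kdm6b had 15.2 ± 1.09, 15.7 ± 1.29 and 15.1 ± 1.34 RPKM in DM-aKG Apc Min, control Apc Min and WT, and supplied 76.1, 74.3 and 76.2% of the RPKM of the pair. Kdm6a, on the X chromosome, had 4.77 ± 0.88, 5.52 ± 1.38 and 4.72 ± 0.85 RPKM. In the KDM7 family, Phf2 rose in control Apc Min over WT (0.49, adjusted p = 0.00373) and in DM-aKG Apc Min over WT (0.38, adjusted p = 0.0335), with 7.23, 8.32 and 12.0 RPKM with DM-aKG, 7.12, 9.16 and 13.8 RPKM in control Apc Min and 5.55, 6.90 and 7.25 RPKM in WT, but not under either other scaling. The Phf2 call with DM-aKG was also lost when any 1 of DM-aKG replicates 2 and 5 or of WT replicates 1, 2 and 3 was left out. Kdm7a and Phf8 were not called as deposited. Both were called lower in control Apc Min than in WT after either other scaling, and Phf8 was called higher with DM-aKG than in control after quantile normalization (0.22, adjusted p = 0.0303).

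Among the remaining JmjC genes, Kdm2a, Jmjd6 and Kdm8 each had a call with RPKM as deposited. Kdm2a, a demethylase of lysine 36 of histone H3 that binds CpG islands, had 14.4, 16.0 and 20.2 RPKM with DM-aKG, 15.7, 20.4 and 23.2 RPKM in control Apc Min and 19.0, 20.5 and 21.3 RPKM in WT. It changed by -0.29 with DM-aKG over control (adjusted p = 0.0173) and by -0.30 over WT (adjusted p = 0.013). The change over control was called under neither other scaling and the change over WT under all 3 scalings. Control Apc Min over WT gave -0.01 as deposited without a call, but was called lower after median-of-ratios scaling (-0.245, adjusted p = 0.0272). Kdm2b, at 3.40 ± 0.39, 3.43 ± 0.88 and 2.77 ± 0.45 RPKM in DM-aKG Apc Min, control Apc Min and WT, was not called. Jmjd6, a lysyl hydroxylase of splicing proteins, had 7.68, 8.92 and 13.9 RPKM with DM-aKG, 10.4, 12.5 and 17.0 RPKM in control Apc Min and 7.65, 9.48 and 11.3 RPKM in WT. Its change of -0.38 with DM-aKG (adjusted p = 0.0187) and its rise of 0.42 in control Apc Min over WT (adjusted p = 0.00411) were not called under the other scalings, and the first was also not called without DM-aKG replicate 4. Kdm8 had 1.12, 1.63 and 2.13 RPKM with DM-aKG, 1.04, 1.75 and 2.87 RPKM in control Apc Min and 0.72, 1.11 and 1.20 RPKM in WT, a rise of 0.49 (adjusted p = 0.00252) in control Apc Min over WT that was not called after quantile normalization. Its rise in DM-aKG Apc Min over WT, 0.36 (adjusted p = 0.0331), was also not called after quantile normalization, nor when any 1 of DM-aKG replicates 1, 2, 4 and 5 or of WT replicates 2 and 5 was left out.

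The TET genes were not called with DM-aKG. Tet3 was the most abundant, with 10.1, 12.2 and 13.4 RPKM with DM-aKG, 8.63, 11.6 and 14.1 RPKM in control Apc Min and 8.08, 9.66 and 12.2 RPKM in WT. Tet2 had 3.995, 4.45 and 6.52 RPKM with DM-aKG, 2.56, 4.41 and 7.79 RPKM in control Apc Min and 2.38, 3.21 and 4.27 RPKM in WT. Tet1 was the lowest of the 35 genes, at 0.10 ± 0.04 RPKM with DM-aKG, 0.18 ± 0.06 RPKM in control Apc Min and 0.13 ± 0.04 RPKM in WT. For DM-aKG over control the changes were 0.03 (SE 0.17) for Tet2 and 0.04 (SE 0.11) for Tet3. Tet2 was higher in control Apc Min than in WT (0.40, SE 0.16, adjusted p = 0.0417) and Tet3 in DM-aKG Apc Min than in WT (0.27, SE 0.11, adjusted p = 0.046). Neither was called under the other scalings, Tet2 was not called without any 1 of 8 libraries (control replicates 3, 5, 6 and 7 and WT replicates 1 to 4), and Tet3 was not called without any 1 of 13. Tet3 supplied 71.7 ± 3.98% of the TET RPKM with DM-aKG, 71.3 ± 5.11% in control Apc Min and 74.6 ± 3.96% in WT.

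In the AlkB family the repair enzyme Alkbh2 and the RNA demethylase Fto were the members with a call under all 3 scalings, beside Alkbh4. Alkbh2, which repairs alkylated bases in double-stranded DNA (chr5:114123926-114128218, minus strand), had 0.74, 0.77 and 0.97 RPKM with DM-aKG, 0.82, 1.85 and 2.21 RPKM in control Apc Min and 0.89, 1.33 and 1.58 RPKM in WT. One control library, replicate 5, lay within the DM-aKG range and the other 6 lay above it. All 6 DM-aKG libraries were below the minimum of 1 RPKM, so the gene was tested only because 6 control and 6 WT libraries reached it, and its place among the 8 that fell depends on that. The change with DM-aKG was -0.51 (SE 0.11, adjusted p = 0.00194), and it was not called within replicates 5 to 7 (-0.51, adjusted p = 0.134). Of its exonic length, 29.5% lies within Usp30 on the opposite strand, and the strand setting of the counting is not given, so part of these reads may be from Usp30. Usp30 itself had 4.91 ± 1.08, 5.30 ± 2.07 and 2.89 ± 0.33 RPKM in DM-aKG Apc Min, control Apc Min and WT, a change of -0.05 with DM-aKG (adjusted p = 0.833).

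Fto, which demethylates N6-methyladenosine in RNA (chr8:91313525-91668439, plus strand), had 7.67, 9.91 and 10.7 RPKM with DM-aKG, 8.83, 10.8 and 12.2 RPKM in control Apc Min and 6.46, 7.14 and 8.91 RPKM in WT. It rose by 0.45 in control Apc Min (SE 0.09, adjusted p = 0.000348) and by 0.31 in DM-aKG Apc Min (SE 0.10, adjusted p = 0.0152) over WT. Alkbh5, the other demethylase of this mark, was the most abundant of the family, with 19.8, 20.7 and 25.6 RPKM with DM-aKG, 19.2, 23.1 and 26.6 RPKM in control Apc Min and 16.5, 19.9 and 22.6 RPKM in WT. Its rise of 0.26 in control Apc Min over WT (adjusted p = 0.0141) was not called under the other scalings. Alkbh4, a demethylase of actin, was lower in both Apc Min groups than in WT, with 1.83, 2.57 and 2.94 RPKM with DM-aKG, 1.97, 2.51 and 3.63 RPKM in control Apc Min and 3.04, 3.2 and 4.32 RPKM in WT. The change was -0.29 in control Apc Min (SE 0.10, adjusted p = 0.0199) and -0.36 in DM-aKG Apc Min (SE 0.11, adjusted p = 0.0121) over WT.

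Of the other AlkB genes, Alkbh1 and Alkbh8, both known for modifications of transfer RNA, were higher in control Apc Min than in WT as deposited and under neither other scaling. Alkbh1 had 2.08, 2.74 and 3.42 RPKM with DM-aKG, 2.17, 3.10 and 5.05 RPKM in control Apc Min and 1.68, 2.17 and 3.30 RPKM in WT (change over WT 0.39, adjusted p = 0.0187). Alkbh8 had 1.33, 1.83 and 2.75 RPKM with DM-aKG, 0.79, 2.57 and 4.17 RPKM in control Apc Min and 0.77, 1.31 and 1.71 RPKM in WT (change over WT 0.52, adjusted p = 0.0268), and this was not called without control replicate 3, 5, 6 or 7 or WT replicate 1 or 3. Alkbh3, Alkbh6 and Alkbh7 were not called as deposited. Alkbh7, a mitochondrial member, had 4.16 ± 1.16, 4.57 ± 1.82 and 5.92 ± 1.35 RPKM in DM-aKG Apc Min, control Apc Min and WT, and was called lower in control Apc Min than in WT under both other scalings.

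**Figure D4:**
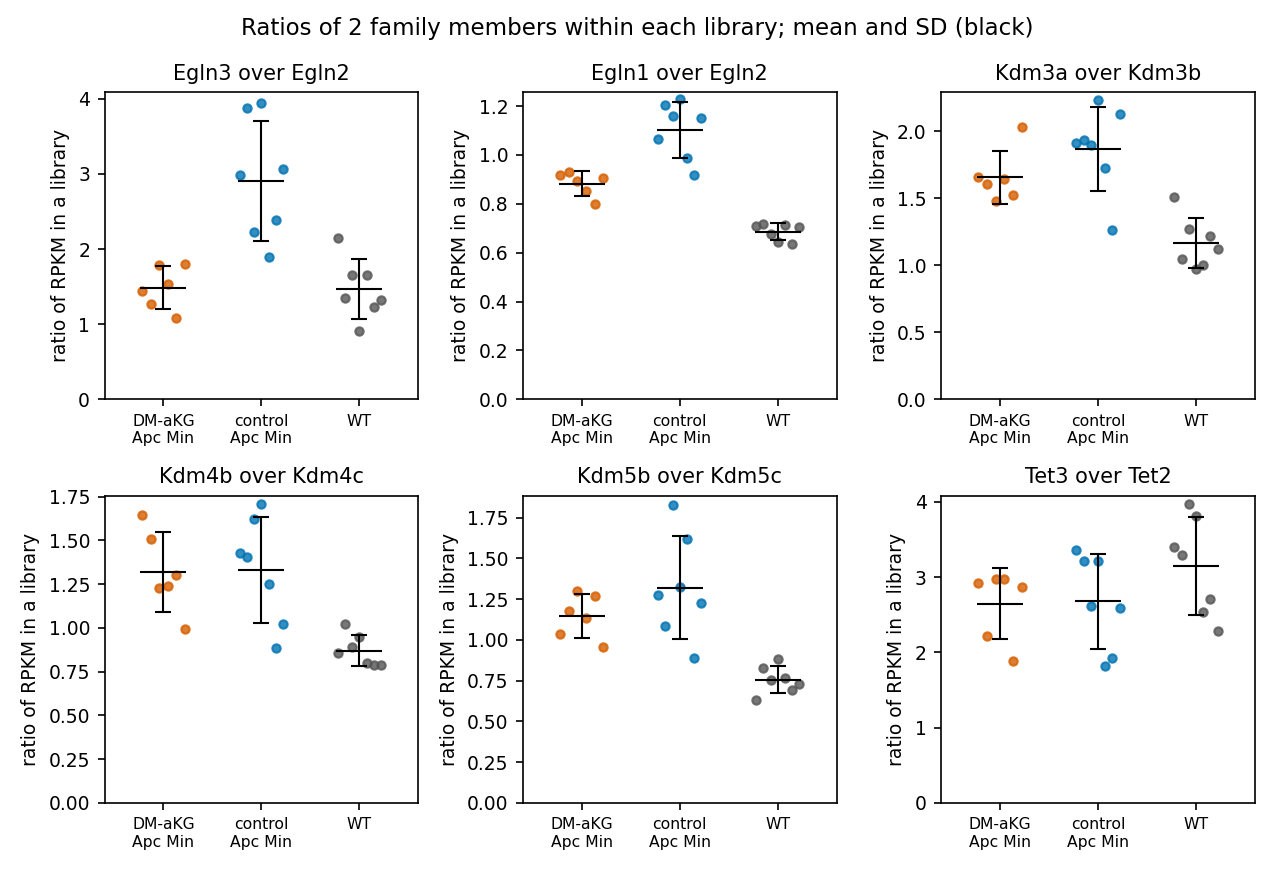
Ratio of the RPKM of 2 genes of a family within each library (points), with group mean and SD in black and axes from 0. Egln1 over Egln2 has means of 0.88 with DM-aKG, 1.10 in control Apc Min and 0.69 in WT. Its WT libraries lie apart, while the DM-aKG and control libraries overlap slightly. Tet3 over Tet2 overlaps between all groups.

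Side by side, the members called under all 3 scalings fell into sets that follow from comparisons with shared groups. Egln3 and Kdm5b were higher in control Apc Min than in WT and lower with DM-aKG than in control. Kdm3a, Kdm4a, Kdm4b, Fto and Egln1 were higher than in WT in both Apc Min groups, and Alkbh4 was lower than in WT in both, though in control Apc Min the calls of Kdm4a and Alkbh4 were lost with the smooth muscle covariate described below. Kdm3b was called higher than in WT under all 3 scalings with DM-aKG and as deposited in control Apc Min. Hr was lower with DM-aKG than in either other group, while Kdm2a and Kdm5c were lower with DM-aKG than in WT. Control Apc Min was also called lower than WT for Kdm5c under both other scalings and for Kdm2a after median-of-ratios scaling. The falls of Kdm2a and Kdm5c over control were called under neither other scaling. Alkbh2 was also called lower with DM-aKG than in either other group, but none of its DM-aKG libraries reached 1 RPKM. It was tested only through control and WT libraries, so its place here depends on the filter. For Alkbh2 the call over WT (-0.32, adjusted p = 0.0348) was lost without any 1 of 8 libraries: DM-aKG replicates 1, 2, 5 and 6 and WT replicates 1, 4, 5 and 7.

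**Figure D5:**
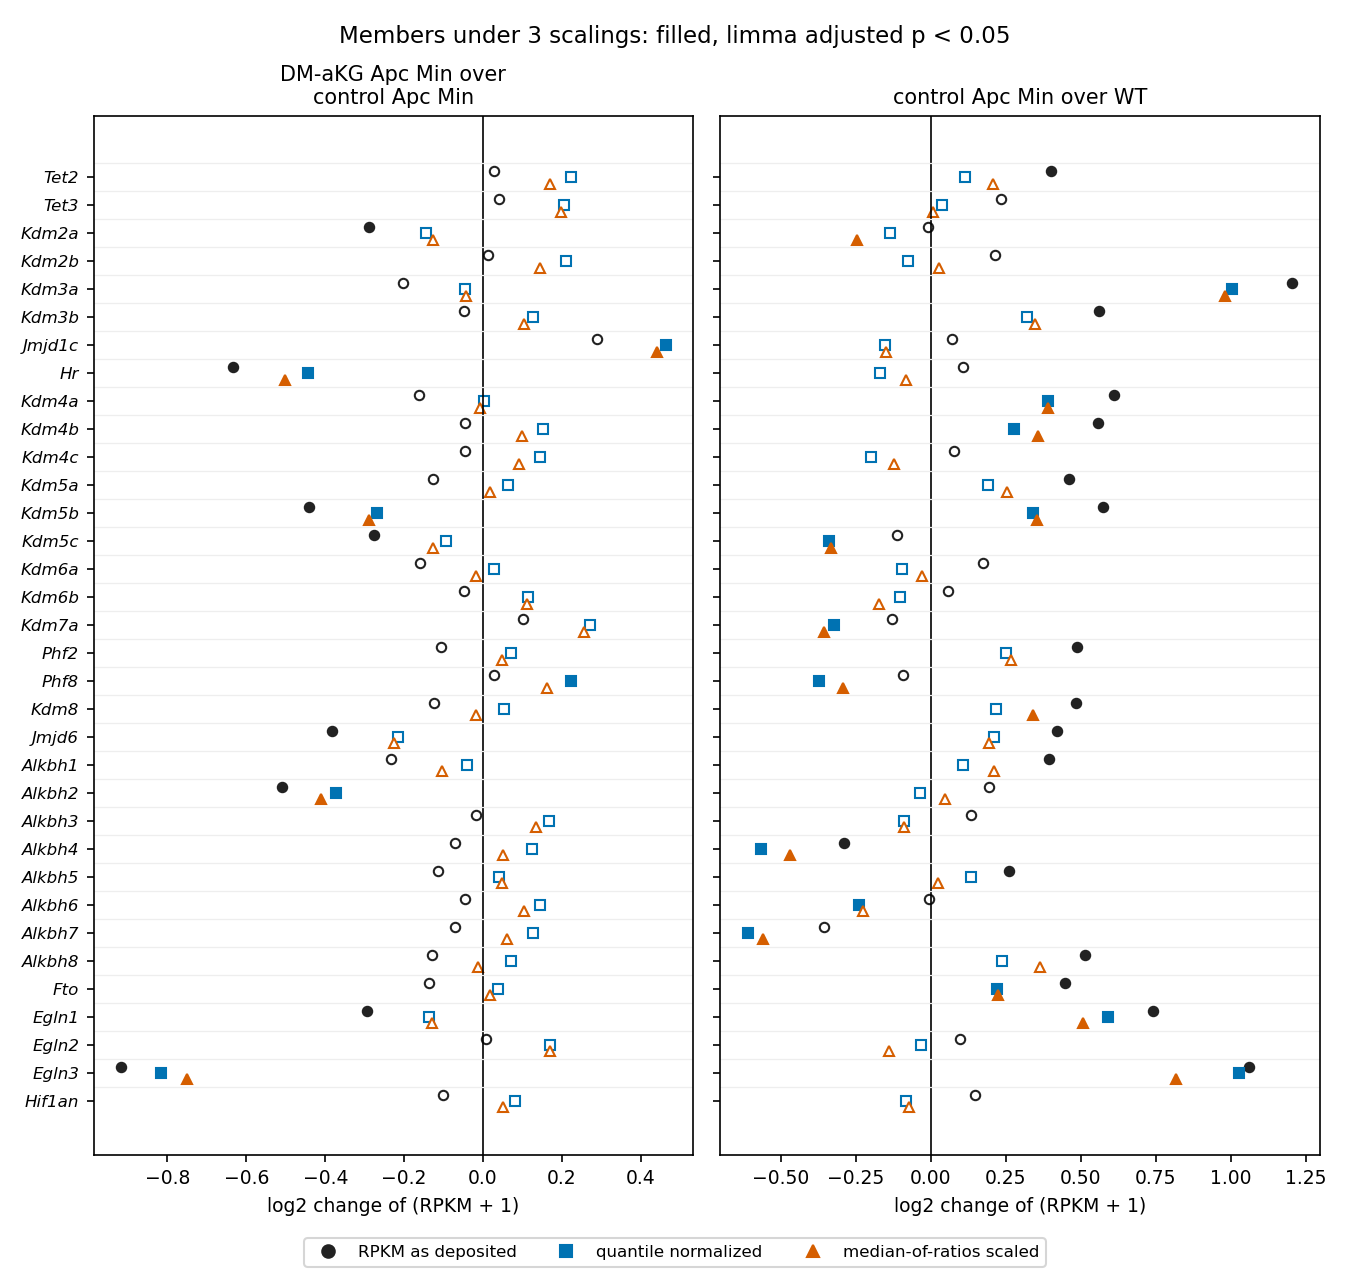
Log2 change of RPKM + 1 for the 34 tested genes (rows) with RPKM as deposited (circles), quantile normalized (squares) and median-of-ratios scaled (triangles); filled symbols have a limma adjusted p under 0.05. In the left panel Egln3, Hr, Kdm5b and Alkbh2 are filled on the negative side under all 3 scalings, and Jmjd1c is filled on the positive side under 2 of them.

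Of 24 tested genes that make or use alpha-ketoglutarate or 2-hydroxyglutarate, 1 rose and 2 fell with DM-aKG (4.17 and 8.33%, median 0.14, against 5.91 and 27.6% and -0.14 for all genes). In control Apc Min, 14 were lower and 2 higher than in WT (58.3 and 8.33%, median -0.36, against 15.7 and 43.2% and 0.20). Under the other scalings 5 and 6 rose and 0 fell with DM-aKG, after quantile normalization and median-of-ratios scaling in that order. Of all genes, 14.1 and 11.1% then rose and 14.9 and 14.7% fell. Gpt, an alanine transaminase, had 75.5 ± 9.05 RPKM with DM-aKG, 46.7 ± 21.0 RPKM in control Apc Min and 84.5 ± 23.3 RPKM in WT, a rise of 0.79 with DM-aKG (adjusted p = 0.011). Got2, the mitochondrial aspartate transaminase, and Psat1, a transaminase of serine synthesis, fell by 0.36 and 0.54 with DM-aKG, without a call under either other scaling. Dlst, a subunit of the oxoglutarate dehydrogenase complex, had 70.6 ± 7.06, 58.0 ± 9.99 and 104.7 ± 16.4 RPKM in DM-aKG Apc Min, control Apc Min and WT, without a call for DM-aKG over control as deposited (0.29, adjusted p = 0.0623) and with one under both other scalings (0.39 and 0.46).

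Among other 2-oxoglutarate dioxygenases, such as the collagen hydroxylases, none of 24 rose and 6 fell with DM-aKG (25%). Those with the smallest p were P4ha2 and Plod3, P3h1 and Plod1, which hydroxylate lysine or proline of collagens and changed by -0.59, -0.38 and -0.41. The flavin-dependent demethylase Kdm1a, which does not use alpha-ketoglutarate, had 12.6 ± 1.31 RPKM with DM-aKG, 19.0 ± 2.30 RPKM in control Apc Min and 9.29 ± 1.03 RPKM in WT. Its change with DM-aKG was -0.55 (adjusted p = 9.6e-05). Kdm1b, the other of the 2 flavin-dependent demethylases, changed by -0.009 without a call. In control Apc Min over WT Kdm1b was not called as deposited and was called lower under both other scalings. Of 26 histone lysine methyltransferases none rose and 6 fell with DM-aKG (23.1%), led by Ezh2, Eed, Smyd2 and Suv39h1, with Ezh2 at 8.06 ± 1.59, 13.2 ± 3.51 and 8.64 ± 0.66 RPKM in DM-aKG Apc Min, control Apc Min and WT. Of 12 genes of DNA methylation none rose and 3 fell (25%): Mbd3 by 0.55, Uhrf2 by 0.41 and Mbd2 by 0.37. Of 14 writers and readers of N6-methyladenosine none rose and 4 fell (28.6%): Rbm15b, Ythdf1, Zc3h13 and Ythdf2, by 0.39, 0.24, 0.25 and 0.19. These shares lie near the 27.6% of all tested genes that fell. After quantile normalization the counts moved, as did those of all genes, of which 14.1% then rose and 14.9% fell. Then 5 rose and 3 fell among the other dioxygenases, and 3 and 1 among the methyltransferases. Among the genes of DNA methylation it was 2 and 2, and 0 and 0 of the 14 for N6-methyladenosine. Of the genes named from these 4 lists, P4ha2, Plod3, P3h1, Ezh2, Mbd3 and Uhrf2 were called lower under all 3 scalings, as was Kdm1a.

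Markers of cell types also differed between the groups. The 13 smooth muscle genes summed to 1206 to 1997 RPKM with DM-aKG, 559 to 1760 RPKM in control Apc Min and 1328 to 2221 RPKM in WT, and 12 of the 13 rose with DM-aKG. The 11 fibroblast genes summed to 140.2 to 246.9, 266.8 to 378.8 and 134.5 to 189.7 RPKM in the same order, and of 10 tested 1 rose and 6 fell with DM-aKG. The 13 epithelial genes summed to 3272 to 4654, 4497 to 6759 and 5881 to 8116 RPKM, with 2 higher and 7 lower with DM-aKG. The 10 proliferation genes summed to 64.2 to 108.6, 97.3 to 178.6 and 78.9 to 148.9 RPKM, with 4 lower. The 12 leukocyte genes summed to 20.8 to 67.7, 27.9 to 74.9 and 83.8 to 119.9 RPKM, and 9 of 10 tested were lower than in WT in each Apc Min group. The 6 endothelial genes summed to 31.7 to 48.0, 34.2 to 45.2 and 10.96 to 27.5 RPKM, with 6 higher than in WT in DM-aKG Apc Min and 4 in control Apc Min. The 7 red blood cell genes, which are globin genes and Alas2, summed to 98.9 to 674.6, 12.98 to 516.0 and 22.7 to 81.1 RPKM. All 7 were higher than in WT in both Apc Min groups. Of 7 Paneth cell genes, 5 rose and 1 fell with DM-aKG relative to control, and 6 were lower in control Apc Min than in WT. With the mean level of the smooth muscle list as a covariate, the change with DM-aKG was -1.0 for Egln3 (adjusted p = 0.00647) and -0.70 for Hr (adjusted p = 0.00319). Kdm5b, at -0.28, was not called (adjusted p = 0.0659). Alkbh2, which was tested only through control and WT libraries, changed by -0.72 (adjusted p = 0.000991). The rise of Kdm3a in control Apc Min over WT was then 0.65 (adjusted p = 0.0034), against 1.21 without the covariate. Kdm4a and Alkbh4 in control Apc Min over WT were no longer called with it (0.31, adjusted p = 0.165, and -0.19, adjusted p = 0.352), while both were still called in DM-aKG Apc Min over WT. The part of the other marker lists in the results was not tested.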

How the data were processed

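The authors deposited a table of 24795 genes by 20 libraries, read here as RPKM, since low values are not whole and rise in steps set by gene length. The submitters' processing notes name mm10, Partek, HISAT2 2.0.4 and CASAVA 1.8. The order of these steps, the annotation and the strand setting were not given in the sources used here. A Qiagen RNA kit and Illumina TruSeq reagents were used, per the labels' protocols. Since RPKM is relative to the library total, abundant genes that change shift the rest.

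From these values, 4 rows with a repeated ID were left out, and log2(RPKM + 1) was fitted over all 20 libraries and 3 groups by limma 3.58.1 (lmFit, then eBayes with robust and trend options; R 4.3.3, statmod 1.5.0), for genes that reached 1 RPKM in 6 or more libraries. P-values are 2-sided and Benjamini-Hochberg adjusted over 12431 genes, with a threshold of 0.05. The fit was tested on simulated data. The groups and replicate numbers came from the sample labels. Depth was estimated from single-exon genes with a RefSeq length, searching 15 to 40 M reads. It made 87.2 to 92.7% of low values (up to 8 reads) fall within 0.1 read of a whole number, where evenly spread values would give 20%; a whole multiple of it would do so too. Only 186 to 223 genes per library entered, so counts were not recovered and no count test was run. Positions and overlaps are from GENCODE M21 on mm10. Promoters are from RefSeq on GRCm38.p6. Python 3.11.15, numpy 2.4.6, pandas 2.3.3 and matplotlib 3.10.9 were used.

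The 35 members and all gene lists were chosen with earlier results of these data known. All 35 members may be named; of each other list, up to 4 genes with the smallest p for DM-aKG over control were named, unless stated. No list was tested. Alternatives varied the scaling, filter, pseudocount, weights, covariates and libraries. Others dropped single libraries or took the replicate number as a block. The numbers were not used as pairs, because 8 of 19 pairs of libraries with the same number deviated together with a correlation over 0.1. No 2 libraries held identical values (Pearson r 0.9155 to 0.9961 over genes).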

Additional observations from a re-analysis of the deposited data

Results flagged for a closer look

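In 4 of 105 groups of libraries (35 genes in 3 groups), the highest library stood apart from the others of its group by the criterion of Dixon's test at 95%; chance would give about 5.2. Tet2 was at 6.52 RPKM in DM-aKG replicate 5, where the next library had 4.54 RPKM. Jmjd6 was at 13.9 RPKM in DM-aKG replicate 2, where the next had 9.44 RPKM. Alkbh5 was at 25.6 RPKM in the same DM-aKG library, where the next had 21.3 RPKM. Alkbh4 was at 4.32 RPKM in WT replicate 1, where the next had 3.50 RPKM. DM-aKG replicate 2 was the highest of its 6 libraries for 16 of the 34 tested genes, control replicate 1 the lowest of its 7 for 17, and WT replicate 1 the lowest of its 7 for 13.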

How the results depend on the processing

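For DM-aKG over control Apc Min, the number of members called higher was 0, but 2 after quantile normalization (Jmjd1c and Phf8) and 1 (Jmjd1c) after median-of-ratios scaling and with replicates 1 to 4 and 5 to 7 as a factor. The number called lower was 8, but 4 under either other scaling, 5 with only the 2 groups compared, 5 within replicates 1 to 4, 5 within replicates 5 to 7 and 3 with the smooth muscle covariate. Those within replicates 5 to 7 were Hr, Kdm5b and Jmjd6 with Alkbh1 (-0.639, adjusted p = 0.0252) and Alkbh8 (-0.615, adjusted p = 0.0266). Alkbh1 and Alkbh8 are not among the 8, and within replicates 1 to 4 they changed by 0.04 and 0.224 without a call. All genes called, 4167, were 2225 within replicates 1 to 4 and 2702 with the smooth muscle covariate. For control Apc Min over WT, members called higher (16) were 7 after quantile normalization, 8 after median-of-ratios scaling and 7 with the smooth muscle covariate. Members called lower (1) were 6 under either other scaling, 2 with the set of replicates as a factor and 0 within replicates 1 to 4 or with that covariate, where all genes called (7316) were 3643. For DM-aKG Apc Min over WT within replicates 5 to 7, where DM-aKG has 2 libraries, members called were 0 higher and 0 lower and all genes called were 548, against 4873. The causes were not tested. The split of all genes called higher and lower also moved with the scaling. For DM-aKG over control it was 735 and 3432 as deposited, 1750 and 1849 after quantile normalization and 1369 and 1815 after median-of-ratios scaling; for control Apc Min over WT it was 5368 and 1948, 3240 and 3348, and 3258 and 3412.

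Leaving out each library in turn gave 0 to 0 members higher and 5 to 8 lower for DM-aKG over control (3442 to 4574 of all genes), 14 to 18 higher and 1 to 2 lower for control Apc Min over WT (6800 to 7477), and 5 to 12 higher and 4 to 5 lower for DM-aKG Apc Min over WT (3802 to 5154). The 5 lower for DM-aKG over control were found without DM-aKG replicate 4, and the 5 higher over WT without DM-aKG replicate 5. No change of a member that was called in the main fit turned its direction under any alternative run.

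With the replicate number as a block, the members called were 1 higher (Jmjd1c) for DM-aKG over control and 2 lower for control Apc Min over WT; other member counts stayed within 1.5 times. All genes called were 760 higher and 3603 lower for DM-aKG over control. Same-number pairs correlated between -0.457 and 0.604, and 4 of 20 libraries deviated most like a library of their own number in another group, so the numbers were not taken as pairs.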
